A study of Mus musculus with 8 samples.

Results

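The genes of hepcidin, iron handling and metal binding described here were measured by RNA-seq of mouse liver: the hepcidin genes Hamp and Hamp2, the transferrin gene Trf and its receptors Tfrc and Tfr2, the ferritin heavy chain Fth1, the exporter ferroportin Slc40a1, the importer Slc39a14, and the metallothioneins Mt1 and Mt2. They were chosen by name, as the rows of the deposited expression table with those gene symbols, and are 10 of the 21358 genes in the table. The study set 4 liver libraries of starvation glucose (SG) mice beside 4 of feeding glucose (FG) mice, that is, glucose intake in the fasted or the fed state, after every-other-day fasting that both groups kept for 22 weeks. The series title describes the animals as a mouse model of metabolic dysfunction. Strain, sex, age, diet, the glucose dose, the time between the last glucose and sampling, and any batch are not given in the sources used here. Livers without glucose or without the fasting regimen were not analysed here, so SG was set against FG and neither against an untreated liver. The labels do not say that each library came from a separate animal, so the p-values speak only to the spread among libraries, which may be partly technical.

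Hepcidin is a small peptide hormone of hepatocytes. It binds ferroportin, the cellular iron exporter, and causes its degradation, so that less iron enters plasma. Hepatocytes set hepcidin transcription by the BMP and SMAD pathway, which senses iron, and by the IL-6 and STAT3 pathway, which responds to inflammation. Metallothioneins are small cysteine-rich proteins that bind zinc and copper, and their genes respond to zinc through the factor MTF-1 and to glucocorticoids.

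Levels are in FPKM, fragments per kilobase of gene length scaled to the fragments of the library, with one value per gene and library. The low values gave back whole fragments for 100% of genes, within 0.02 of a fragment, with 36545128 to 41977438 fragments per library. A difference is the SG mean minus the FG mean of log2(FPKM + 1), which understates changes of genes near 1 FPKM. A gene was called at a Benjamini-Hochberg adjusted p under 0.05 in a limma fit of all 9867 genes with at least 1 FPKM in at least 4 libraries. In that fit 19.4% of tested genes were called, 3.73% higher and 15.6% lower in SG livers, and the median difference of all tested genes was -0.135. Median-ratio scaling between libraries moved that median to 0.006 and left 9.97% called, 5.23% higher and 4.74% lower. The libraries carried hepatocyte markers such as albumin (summed level of 6 markers 52433 to 67637 FPKM in SG and 49689.7 to 59656 FPKM in FG livers). The summed Kupffer cell markers overlapped, at 143 to 279 FPKM in SG and 157 to 244 FPKM in FG livers. Library SG 105 was the highest SG library for 6 of the 10 genes, against 16.96% of tested genes, and the highest of all 8 libraries for 5 of them, against 7.98%. Results that rest on it are given with and without it.

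All 10 genes were at 1 FPKM or more in every library. Tfr2, Mt1 and Mt2 rose in SG livers, and the median difference over the 10 was 0.01. None of the 10 was called lower by limma, where 1 of them, Hamp2, had an unadjusted p under 0.05 in that direction, and voom on the recovered fragments called none lower. Of all tested genes 19.4% were called in either direction and 3.73% higher, against 3 of these 10, all higher, and no test of the 10 as a group was made. The SG and FG values did not overlap for 1 of the 10 genes, Tfr2, whereas they did not overlap for 26.1% of tested genes. Without SG 105, 3 of the 10 were called, and they differed in part from those above, Tfr2 higher and Hamp and Hamp2 lower, with 10.5% of all tested genes called. After median-ratio scaling 1 of the 10 was called, Tfr2.

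**Figure D1:**
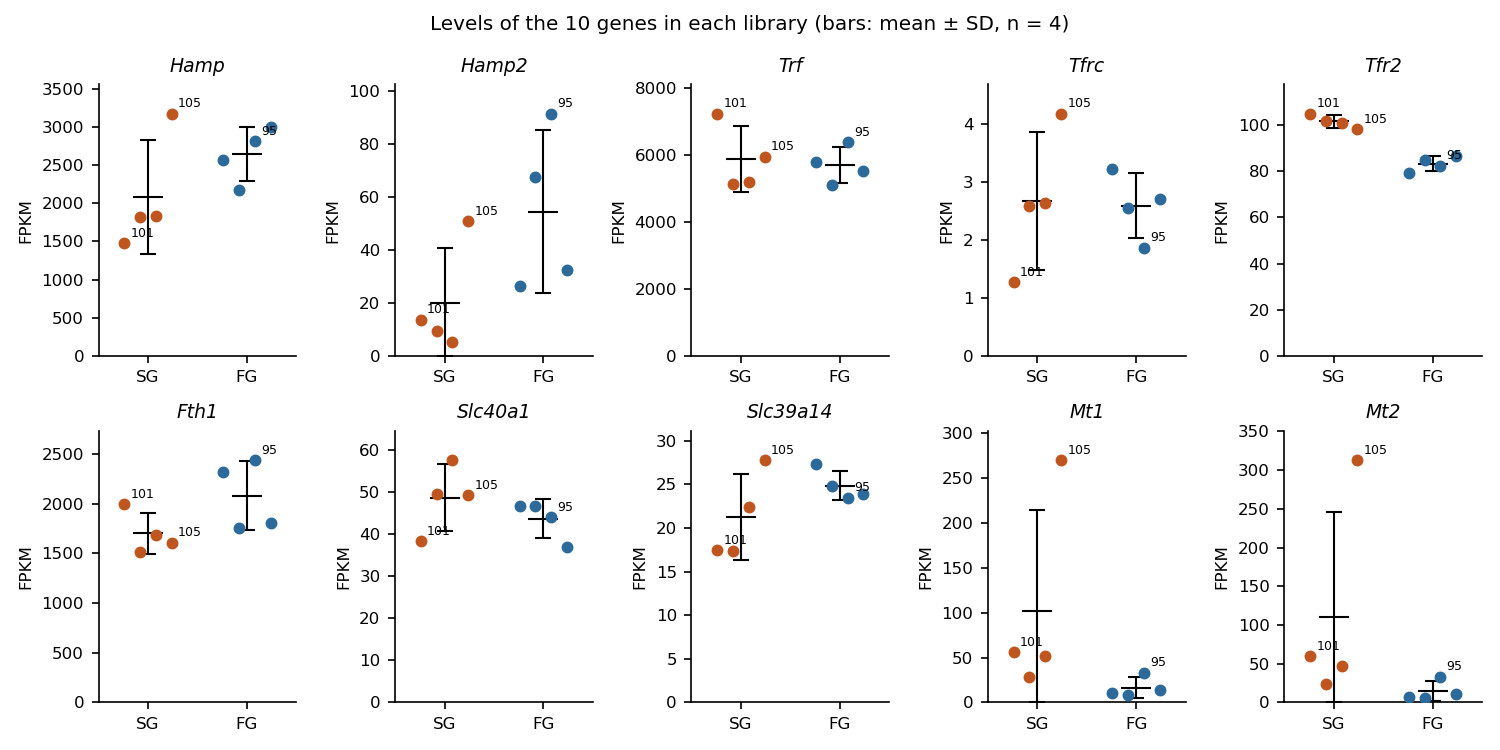
Level in FPKM (y axis, linear, from 0) of each of the 10 genes in the 4 SG and 4 FG libraries (x axis); points are libraries, bars the mean and SD, with the lower bar cut at 0, and SG 101, SG 105 and FG 95 are labelled. The SG values of Tfr2 lie from 98.4 to 105 FPKM, all above the FG values of 79.2 to 86.6 FPKM, and SG 105 stands far above the other libraries for Mt1 and Mt2.

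In SG livers, on the FPKM scale, Trf was highest with a mean level of 5871, then Hamp (2079.8) and Fth1 (1701), whose library values overlapped, followed by Mt2, Mt1 and Tfr2. Next came Slc40a1, Slc39a14 and Hamp2, and last Tfrc at 2.67. Mt1, Mt2 and Tfr2 averaged 102, 111 and 102 FPKM in SG livers and their values overlapped, as did those of Slc39a14 and Hamp2. In FG livers the order was Trf, Hamp, Fth1, Tfr2, Hamp2, Slc40a1, Slc39a14, Mt1, Mt2 and Tfrc, and neighbours in that order overlapped except Trf and Hamp, Fth1 and Tfr2, Slc40a1 and Slc39a14, and Mt2 and Tfrc. The gene length behind the FPKM of Mt1, inferred from the recovered fragments as 1258 bases, is longer than its main annotated transcript of 549 bases. For Mt2 the lengths are 556 and 511 bases, so the order of the metallothioneins depends on the lengths used.

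Hamp and Hamp2 lie side by side on mouse chromosome 7, Hamp (NCBI gene 84506) at chr7:30942368-30944029 and Hamp2 (66438) at chr7:30922372-30924181 (GRCm38.p6), with 18186 bases between them that hold the pseudogene Usf2-ps1. Hamp encodes the hormone that acts on ferroportin, while its copy Hamp2 is not known to control iron in mice. Their main transcripts are alike in 388 of 410 aligned bases (94.6%), with identical runs of up to 87 bases. Those runs are shorter than the 150 bp reads, so a full-length read would cross a difference. Trimmed or mismatched reads could still be shared, which was not tested. The level of the lower gene, Hamp2, is uncertain to that extent. The promoters differ in the stretch that carries the known BMP and STAT elements, and are printed for that reason. The RefSeq windows are given 5′ to 3′ on the minus strand, with the BMP response element core GGCGCC and the STAT site TTCNNNGAA in capitals:
Hamp, chr7:30944080-30944179, -150 to -51 from the start: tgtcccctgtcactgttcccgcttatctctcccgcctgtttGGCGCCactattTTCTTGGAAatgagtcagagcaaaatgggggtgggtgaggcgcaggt
Hamp2, chr7:30924229-30924328, -147 to -48 from the start: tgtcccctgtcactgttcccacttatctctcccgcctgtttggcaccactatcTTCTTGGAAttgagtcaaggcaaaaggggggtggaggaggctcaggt
Counted from 1 at the first base of the Hamp core, Hamp2 carries G4A, and its window of 250 bases before to 50 after the start held no GGCGCC on either strand. The STAT letters were in both, at -97 in Hamp and -94 in Hamp2, and did not overlap the core at -109. Over the 250 bases upstream the genes shared 227 of 247 aligned bases (91.9%). Of 32851 mouse promoter windows of the same length, 11.9% held GGCGCC and 8.30% held TTCNNNGAA on either strand.

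Hamp stood at 1480.3, 1824, 1839 and 3176 FPKM in SG livers 101, 103, 104 and 105, against 2570.1, 2181, 2813 and 3006 FPKM in FG livers 93, 94, 95 and 96. SG 101, SG 103 and SG 104 lay below all 4 FG libraries, and SG 105 lay above all of them. The means were 2079.8 ± 749 FPKM in SG and 2643 ± 356 FPKM in FG livers (SD, n = 4 each), a log2 difference of -0.40 (SE 0.217, limma adjusted p = 0.224). Without SG 105 the difference was -0.62 with a limma adjusted p of 0.0295, so that single library decided the call. Under median-ratio scaling it was -0.22 (adjusted p = 0.573). Hepatocytes and other cells were pooled in each library, and fewer cells of a type and less RNA per cell cannot be told apart, for this and all later values.

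Hamp2 had 13.7, 9.58, 5.24 and 51.0 FPKM in the SG libraries in the same order, against 26.3, 67.8, 91.6 and 32.3 FPKM in the FG libraries. As for Hamp, 3 SG libraries were below every FG library, and SG 105 lay within the FG values. The mean was 19.9 ± 21.0 FPKM in SG and 54.5 ± 30.8 FPKM in FG livers (SD, n = 4 each), a log2 difference of -1.71 (SE 0.625, limma adjusted p = 0.0827). It was -2.31 without SG 105, with a limma adjusted p of 0.0224, and -2.05 with array weights, which count noisy libraries less (adjusted p = 0.0272). Hamp2 was counted from as few as 86 fragments in a library, Hamp from 23626 to 50068. The level of Hamp2 relative to Hamp within a library was 0.00285 to 0.0161 in SG and 0.0102 to 0.0326 in FG livers, a log2 difference of -1.41 (exact permutation p = 0.114, adjusted over 4 ratios 0.152).

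Tested genes were ranked by how closely their log2 levels, centred on each gene's mean, followed that of Hamp over the 8 libraries. The nearest were Nop2, a nucleolar RNA methyltransferase, Usp36, a nucleolar deubiquitinase, and Samd1. Their root mean square distances were 0.132, 0.150 and 0.159 log2 units, where Hamp itself varied by 0.371. Nop2 had 4.74, 5.99, 7.06 and 9.27 FPKM in the SG libraries and 8.08, 8.21, 9.16 and 10.1 FPKM in the FG libraries. It too was lowest in SG 101 and, of the SG libraries, highest in SG 105. Slc39a14 ranked 38 on this measure (0.227) and Hamp2 ranked 9743 (1.05). The distance is not scaled to how much a gene varies, so a gene that varied far more than Hamp, as Hamp2 did, ranks low whatever its pattern. The rank of Hamp2 therefore does not show whether it followed Hamp.

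Of the transferrin receptors, Tfr2 rose in SG livers and Tfrc was not called. Tfr2 (50765, chr5:137569822-137588081), a receptor that in hepatocytes senses iron-laden transferrin and feeds the hepcidin pathway, had 105, 102, 101 and 98.4 FPKM in SG livers, against 79.2, 84.7, 82.4 and 86.6 FPKM in FG livers. Every SG library lay above every FG library, and the spread within each group was small. Means were 102 ± 2.75 FPKM in SG and 83.2 ± 3.18 FPKM in FG livers (SD, n = 4 each), 1.22 times higher. The log2 difference was 0.28 (SE 0.0706, limma adjusted p = 0.0255), and the exact permutation p was 0.0286, the smallest that 4 against 4 allows. Under median-ratio scaling it was 0.46 (limma adjusted p = 0.0118). Tfr2 lost the call when any one of FG 93, FG 94, FG 95, SG 103 or SG 104 was left out, at adjusted p values of 0.0502 to 0.0779.

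Tfrc (22042, chr16:32608896-32632794), the transferrin receptor through which most cells take up iron, was at 1.27, 2.59, 2.64 and 4.18 FPKM in SG and 3.23, 2.56, 1.87 and 2.71 FPKM in FG livers. The SG libraries included both the lowest and the highest value of all 8. Its means were 2.67 ± 1.19 FPKM in SG and 2.59 ± 0.561 FPKM in FG livers (SD, n = 4 each), a log2 difference of -0.02 (SE 0.230, limma adjusted p = 0.969). The sign of that difference turned under median-ratio scaling (0.11). Tfrc was counted from 257 to 833 fragments per library. Its nearest followers over the 8 libraries were Amn1, the transcription factor Mef2d and the endosomal protein Zfyve16, at 0.0974, 0.111 and 0.128 log2 units, where Tfrc varied by 0.330.

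Iron-responsive elements, stem-loops bound by the iron regulatory proteins when iron is low, govern several of these transcripts. In a 3′ UTR they guard Tfrc mRNA against decay, and in a 5′ UTR they block translation of the ferritins and ferroportin. Such elements have a C, 5 bases, the loop CAGTGN with N other than G, and 5 bases that pair back, G·T allowed. They were searched for in the GENCODE vM21 transcripts of the 10 genes and of Ftl1, and 4 of these genes held them. They are printed 5′ to 3′ as 29 bases, with the loop in capitals, as the sequences that tie these genes to iron in the cell:
Tfrc, transcript of 4890 bases, 3′ UTR, from base 3315: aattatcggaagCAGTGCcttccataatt
Tfrc, transcript of 4890 bases, 3′ UTR, from base 3694: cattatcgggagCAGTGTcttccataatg
Tfrc, transcript of 4890 bases, 3′ UTR, from base 3759: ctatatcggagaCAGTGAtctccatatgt
Tfrc, transcript of 4890 bases, 3′ UTR, from base 3806: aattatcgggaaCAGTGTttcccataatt
Fth1, transcript of 929 bases, 5′ UTR, from base 87: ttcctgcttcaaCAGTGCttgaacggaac
Ftl1, transcript of 968 bases, 5′ UTR, from base 78: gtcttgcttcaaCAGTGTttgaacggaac
Slc40a1, transcript of 3370 bases, 5′ UTR, from base 90: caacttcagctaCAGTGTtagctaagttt
RNA levels do not measure the translation of ferritin or ferroportin. Tfrc and Fth1, with elements at opposite ends, gave a within-library Tfrc to Fth1 ratio with a log2 difference, SG minus FG, of 0.23 (exact permutation p = 0.629, adjusted over 4 ratios 0.629). It turned to -0.05 without SG 105, was 0.00 without FG 95 and was 0.63 without SG 101.

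Trf (22041, chr9:103208876-103230286), the plasma carrier of iron that the liver secretes, was the highest of the 10 genes, with 7232, 5124, 5179 and 5947 FPKM in SG and 5789, 5114, 6388 and 5514 FPKM in FG livers. The groups overlapped widely, at 5871 ± 982 FPKM in SG and 5701 ± 535 FPKM in FG livers (SD, n = 4 each), and the log2 difference was 0.03 (SE 0.131, limma adjusted p = 0.880). Slc39a14 (213053, chr14:70303467-70351452), which imports non-transferrin-bound iron as well as zinc and manganese, had 17.5, 17.4, 22.4 and 27.8 FPKM in SG livers, against 27.3, 24.8, 23.5 and 23.9 FPKM in FG livers. Its 3 lowest libraries of the 8 were SG libraries, and SG 105 was the highest of all. The means were 21.3 ± 4.94 FPKM in SG and 24.9 ± 1.72 FPKM in FG livers (SD, n = 4 each), a log2 difference of -0.24 (SE 0.147, limma adjusted p = 0.276). It was -0.37 without SG 105 (limma adjusted p = 0.0723) and -0.07 under median-ratio scaling.

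Of the chains of ferritin, the cage that holds cellular iron, the light chain fell in SG livers and the heavy chain was not called. Fth1 (14319, chr19:9980600-9985111), the heavy chain with ferroxidase activity, had 1999, 1515, 1681 and 1607 FPKM in SG livers, against 2322, 1755, 2439 and 1808 FPKM in FG livers. The groups overlapped through SG 101. The means were 1701 ± 210.2 FPKM in SG and 2081 ± 349.6 FPKM in FG livers (SD, n = 4 each), a log2 difference of -0.28 (SE 0.139, limma adjusted p = 0.176). It was called under quantile normalization at -0.42 (adjusted p = 0.0272), and was -0.11 under median-ratio scaling (adjusted p = 0.669). The light chain Ftl1 fell by 0.75 on the log2 scale (SE 0.178, limma adjusted p = 0.0223), to 1864 ± 232 FPKM in SG livers, against 3187 ± 807 FPKM in FG livers (SD, n = 4 each). Under median-ratio scaling the difference in Ftl1 was -0.57 with an adjusted p of 0.0772, and it also lost the call without FG 93, SG 103, SG 104 or SG 105. Within a library the Fth1 to Ftl1 ratio was 0.913, 0.834, 0.929 and 0.980 in SG livers, against 0.631, 0.719, 0.600 and 0.705 in FG livers. The 2 groups did not overlap, with a log2 difference of 0.46 and an exact permutation p of 0.0286, the smallest 4 against 4 can give. Adjusted over the 4 ratios examined, that p was 0.114, so the ratio did not pass.

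**Figure D2:**
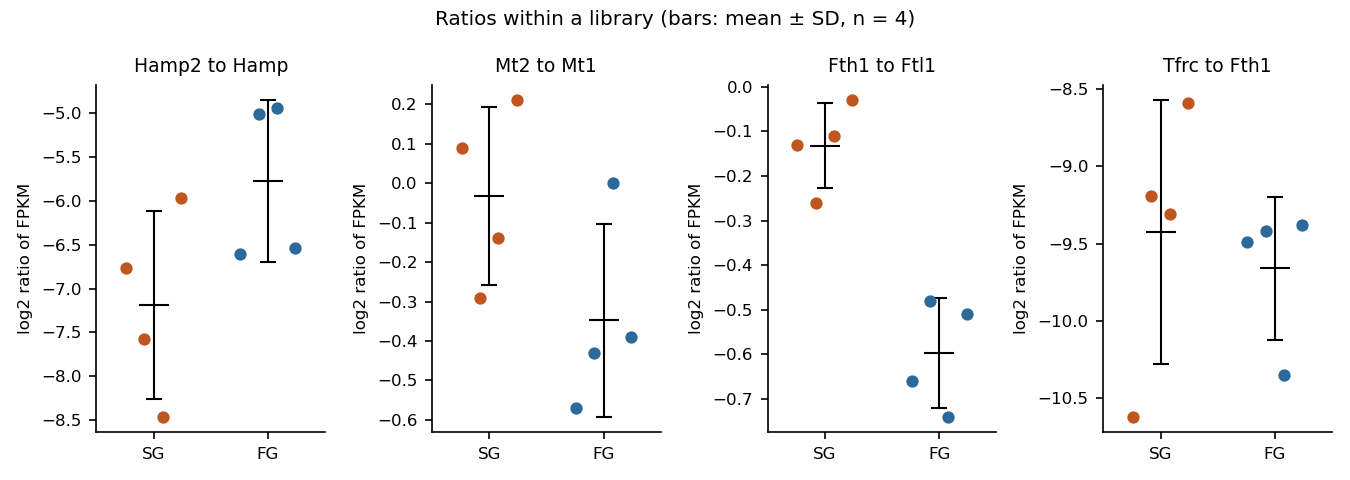
Ratio of FPKM between paired genes within each library, on a log2 scale (y axis), for the 4 SG and 4 FG libraries (x axis); points are libraries and bars the mean and SD. The Fth1 to Ftl1 ratio lies higher in all 4 SG libraries than in any FG library, at 0.834 to 0.980 in SG against 0.600 to 0.719 in FG livers before the log, and the other 3 ratios overlap.

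Slc40a1 (53945, chr1:45908070-45926532), ferroportin, which moves iron out of hepatocytes and macrophages, had 38.3, 49.5, 57.6 and 49.3 FPKM in SG livers, against 46.8, 46.6, 44.1 and 36.9 FPKM in FG livers. SG 103, SG 104 and SG 105 were above every FG library, and SG 101 lay among the FG values. The means were 48.7 ± 7.92 FPKM in SG and 43.6 ± 4.63 FPKM in FG livers (SD, n = 4 each), a log2 difference of 0.15 (SE 0.132, limma adjusted p = 0.456). It was 0.26 without SG 101, 0.07 without FG 96, 0.06 without SG 104, and 0.32 under median-ratio scaling, and was not called in any of these. Kupffer cells, which carry much of the liver's ferroportin, had 0 of 10 markers called in the limma fit, where 19.4% of all tested genes were called. None of the 10 had an unadjusted p under 0.05 in that fit, and none was called by voom. The part of cell makeup in this value was not tested.

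The metallothioneins rose most of the 10 genes. Mt1 (17748) and Mt2 (17750) are neighbours on chromosome 8, at chr8:94178883-94180327 and chr8:94172618-94173567, 5315 bases apart with no gene between. Mt1 had 56.3, 28.7, 51.4 and 270.0 FPKM in SG livers, against 10.3, 8.50, 33.3 and 14.2 FPKM in FG livers. All SG values but the lowest were above every FG value, and SG 105 was far above the rest. The means were 102 ± 113 FPKM in SG and 16.6 ± 11.4 FPKM in FG livers (SD, n = 4 each), 6.13 times higher. The log2 difference was 2.19 (SE 0.643, limma adjusted p = 0.0432, exact permutation p = 0.0571). Without SG 105 the difference was 1.54 and the limma adjusted p 0.0577; leaving out each library in turn gave adjusted p values of 0.0385 to 0.113, and only the fits without FG 95 or SG 103 still called Mt1, as they did Mt2.

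Mt2 put the 8 libraries in the same order as Mt1. It had 59.9, 23.5, 46.8 and 313 FPKM in SG livers, against 6.96, 6.32, 33.2 and 10.8 FPKM in FG livers, and FG 95 lay above SG 103. The means were 111 ± 136 FPKM in SG and 14.3 ± 12.8 FPKM in FG livers (SD, n = 4 each), 7.73 times higher. The log2 difference was 2.47 (SE 0.753, limma adjusted p = 0.0482, exact permutation p = 0.0571). Without SG 105 the difference was 1.74 and the limma adjusted p 0.0755, and Mt1 and Mt2 lost their calls under median-ratio scaling (2.35 and 2.64, adjusted p = 0.0536 and 0.0609). They also lost them without the filter on low values, with quantile normalization, with robust empirical Bayes and by voom, at adjusted p values of 0.0521 to 0.133. Mt1 was the gene closest to Mt2 of all tested, at 0.237 log2 units where Mt2 varied by 1.68, ahead of Gm33543 (0.756) and the drug-metabolizing cytochrome P450 gene Cyp2b10 (0.852). Their transcripts share 348 of 481 aligned bases (72.3%) with identical runs of at most 20 bases. The Mt2 to Mt1 ratio was 1.06, 0.820, 0.910 and 1.16 in SG livers, against 0.675, 0.743, 0.9999 and 0.761 in FG livers, a log2 difference of 0.32 (exact permutation p = 0.114, adjusted over 4 ratios 0.152).

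**Figure D3:**
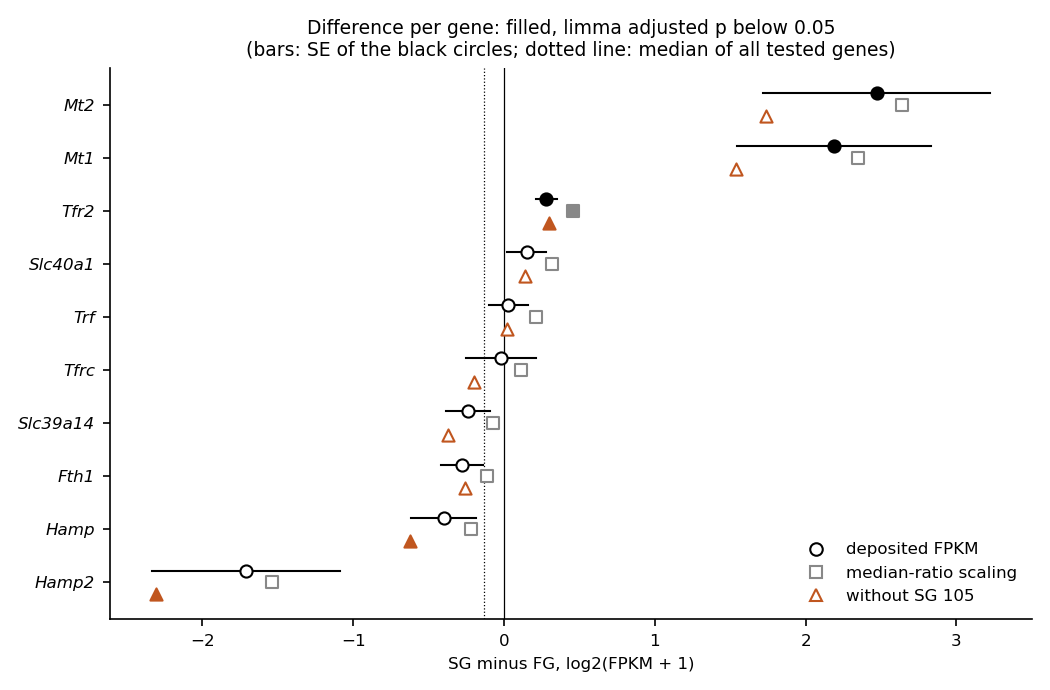
Difference between SG and FG livers in log2(FPKM + 1) (x axis) for each of the 10 genes (y axis), from the deposited FPKM (circles, with SE), after median-ratio scaling (squares) and without SG 105 (triangles); filled symbols have a limma adjusted p under 0.05 and the dotted line is the median of all tested genes. Tfr2 is filled in all 3 settings, Mt1 and Mt2 only with the deposited FPKM, and Hamp and Hamp2 only without SG 105.

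Metallothionein promoters carry metal response elements, which the factor MTF-1 binds when zinc rises. The cores TGCACNC and TGCGCNC were searched on both strands of the RefSeq promoter windows. The start used for the Mt1 window lies inside the gene span given above, past its first base, whereas that of Mt2 is the first base of its gene. The Mt1 stretch printed below therefore lies within that span, and match positions in Mt1 and Mt2 are not counted from like points. The 150 bases before each start are printed 5′ to 3′ on the plus strand with the matches in capitals, since these genes moved together:
Mt1, chr8:94178939-94179088, -150 to -1 from the start: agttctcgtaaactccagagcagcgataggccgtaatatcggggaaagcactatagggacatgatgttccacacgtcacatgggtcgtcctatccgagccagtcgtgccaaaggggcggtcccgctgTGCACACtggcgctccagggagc
Mt2, chr8:94172468-94172617, -150 to -1 from the start: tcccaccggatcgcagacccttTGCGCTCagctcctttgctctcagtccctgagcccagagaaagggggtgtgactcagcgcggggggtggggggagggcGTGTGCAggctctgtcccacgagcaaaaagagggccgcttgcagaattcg
In the whole window Mt1 held 3 matches, at -23, 3 and 21 from the start, and Mt2 held 4, at -223, -128, -50 and 5; none overlapped another. Of all 32851 windows, 25.7% held at least 1 match and 1.97% held 3 or more. A match is a run of letters and not a shown binding site. Windows were found for 7 of the 10 genes, not for Trf, Slc40a1 or Slc39a14. These letters were not particular to the hepcidin and metallothionein genes. Tfrc held GGCGCC at -89 and metal response cores at -53 and -50, which overlap, counted from the more upstream of its annotated starts. Fth1 and Tfr2 held neither core.

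The genes that control hepcidin through BMP and SMAD moved in both directions: 3 of 22 tested rose in SG livers and 4 fell, with a median difference of -0.21. Of all tested genes 3.73% rose and 15.6% fell, with a median of -0.135, so the number that fell is near the general share. Hjv, hemojuvelin, the BMP co-receptor that raises hepcidin, had 55.3, 43.5, 35.3 and 42.9 FPKM in SG livers, against 28.7, 25.6, 21.6 and 19.0 FPKM in FG livers. Every SG library was above every FG library, at means of 44.2 ± 8.26 FPKM in SG and 23.7 ± 4.28 FPKM in FG livers (SD, n = 4 each), a log2 difference of 0.87 (limma adjusted p = 0.00923). Fgl1, a secreted hepatocyte protein known as an antagonist of BMP6 that lowers hepcidin, rose by 1.09 (limma adjusted p = 0.0153) to 129.9 ± 36.4 FPKM in SG livers, against 59.6 ± 14.7 FPKM in FG livers. Hjv and Fgl1 have opposite known effects on hepcidin, and both kept their calls in all 18 alternatives examined. Creb3l3, a liver transcription factor that can act on the Hamp promoter, rose by 0.36 (limma adjusted p = 0.0305) but lost the call without FG 93, FG 95, SG 103 or SG 104.

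The genes that fell were Cebpa, Bmp2, Acvr1 and Smad1, all of which are known to favour hepcidin transcription. Cebpa, a hepatocyte transcription factor, fell by 0.53 in log2 terms (limma adjusted p = 0.0120), to 89.0 ± 8.18 FPKM in SG livers, against 129 ± 13.2 FPKM in FG livers (SD, n = 4 each). Bmp2, a ligand made mainly by sinusoidal endothelial cells, fell by 0.37 (limma adjusted p = 0.0492) to 4.11 ± 0.457 FPKM in SG livers, against 5.60 ± 0.724 FPKM in FG livers, and was called in only 1 of the 8 fits that left out a library, the one without FG 95 (adjusted p = 0.0347 there and up to 0.127 in the others). Acvr1, a BMP receptor, and Smad1, which carries the BMP signal to the nucleus, fell by 0.35 and 0.32 (limma adjusted p = 0.0425 and 0.0457), are named after their values were seen, and were likewise called in only 1 of those 8 fits, the one without SG 101. After median-ratio scaling none of these 4 was called (Cebpa was at -0.35, adjusted p = 0.0614), whereas Hjv, Fgl1 and Creb3l3 still were. The summed level of 7 sinusoidal endothelial markers was 87.7 to 95.9 FPKM in SG and 109 to 129 FPKM in FG livers. Its exact permutation p was 0.0286, the smallest 4 against 4 allows, and was not adjusted over the marker lists. Of the 7, Clec4g and Fcgr2b were called lower, where 15.6% of all tested genes were. None of the 7 was at 0 in any library. Clec4g and Fcgr2b had the highest means of the 7, at 34.7 and 27.1 FPKM in SG and 51.6 and 33.3 FPKM in FG livers. After median-ratio scaling neither was called (-0.40 and -0.11). With the deposited FPKM Pecam1 was at -0.32 (limma adjusted p = 0.116). Stab1, Stab2, Lyve1 and Kdr differed by 0.03, -0.01, 0.24 and -0.09. The part of those cells in the Bmp2 value was not tested. Bmp6, the other endothelial ligand, averaged 2.81 ± 0.434 FPKM in SG and 2.62 ± 0.475 FPKM in FG livers (limma adjusted p = 0.691). Hfe, which acts with Tfr2, had a log2 difference of -0.07 (adjusted p = 0.652). Tmprss6, the protease that cuts hemojuvelin, was at -0.11 (limma adjusted p = 0.382), and the pathway's target genes Id1 and Smad7 were at -0.21 and -0.30 (adjusted p = 0.325 and 0.194).

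None of the 17 IL-6 and STAT3 genes was called in the limma fit, where 4 had an unadjusted p under 0.05 (3 higher, 1 lower in SG livers), and voom called none. Of all tested genes the limma fit called 3.73% higher and 15.6% lower. The smallest adjusted p values of the list were those of Il6ra and Fga, named after their values were seen. The receptor gene Il6ra was at 0.87 (limma adjusted p = 0.0554), with 19.1 to 26.1 FPKM in SG and 7.46 to 23.1 FPKM in FG livers, which overlapped. The fibrinogen gene Fga was at -0.25 (limma adjusted p = 0.0660). The acute-phase gene Saa1 had 20.6, 50.05, 13.9 and 26.6 FPKM in SG livers, against 8.87, 12.9, 15.8 and 13.3 FPKM in FG livers, with SG 104 among the FG values. Its log2 difference was 0.95 (limma adjusted p = 0.0740), 0.62 without SG 103, and 1.21 and called without SG 104 (adjusted p = 0.0399). Stat3, the transcription factor of the pathway, averaged 24.3 ± 1.22 FPKM in SG and 20.9 ± 1.09 FPKM in FG livers (SD, n = 4 each), a log2 difference of 0.21 (limma adjusted p = 0.0914). It passed after median-ratio scaling at 0.38 (adjusted p = 0.0215). Socs3, a feedback inhibitor that STAT3 induces, was at -0.39 (limma adjusted p = 0.355), and at -0.06 without FG 93, which had 5.30 FPKM.

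Of 16 tested genes of iron uptake, storage and recycling, 1 rose and 5 fell in SG livers, with a median difference of -0.30. Of all tested genes 3.73% rose and 15.6% fell, with a median of -0.135. After median-ratio scaling 1 of the 16 rose and 2 fell, where 5.23% of all tested genes rose and 4.74% fell. Besides Ftl1, the genes that fell were Pcbp1, a chaperone that hands iron to ferritin (-0.51, limma adjusted p = 0.00803), and Fbxl5, the iron-sensing ligase for iron regulatory protein 2 (-0.53, adjusted p = 0.0159). So did Cp, the ferroxidase ceruloplasmin (-0.41, adjusted p = 0.0150). Pcbp1 and Cp lost their calls after median-ratio scaling (-0.34 and -0.24, adjusted p = 0.0631 and 0.118), and Fbxl5 kept it. The counts of 5 and 2 include Steap2, a metalloreductase, which was below 1 FPKM in all 4 SG livers. It entered the fit only through its FG values of 1.33 to 1.78 FPKM, so its call has no weight. Ncoa4, the receptor that takes ferritin to lysosomes for iron release, had 23.8, 24.2, 28.3 and 33.3 FPKM in SG livers, against 19.0, 20.5, 21.0 and 21.2 FPKM in FG livers. It was the only gene of the list to rise, by 0.40 (limma adjusted p = 0.0400), is named here after its values were seen, and was called in only 1 of the 8 fits that left out a library, the one without SG 101. The iron regulatory protein genes Aco1 and Ireb2 were both at 0.14 (limma adjusted p = 0.384 and 0.722), and the heme oxygenase gene Hmox1 was at -0.04 (adjusted p = 0.854).

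Of 13 genes of mitochondrial iron use, 1 fell in SG livers, Lyrm4, which assists iron-sulfur cluster assembly (-0.41, limma adjusted p = 0.0289), where 15.6% of all tested genes fell, and the median difference was -0.13. Lyrm4 lost its call after median-ratio scaling (-0.27, adjusted p = 0.104) and without FG 93, FG 94, FG 95, SG 104 or SG 105 (adjusted p up to 0.0825). After median-ratio scaling the only call of the list was in the other direction, Cisd1, an iron-sulfur protein of the outer mitochondrial membrane, at 0.44, against 0.27 (adjusted p = 0.0643) with the deposited FPKM.

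While Mt1 and Mt2 rose, none of 21 tested genes of zinc and copper handling rose in the limma fit (0 at an unadjusted p under 0.05 in that direction, and 0 by voom). Of the 21, 8 fell, where 15.6% of all tested genes did, at a median difference of -0.23. After median-ratio scaling 1 of the 21 was called, Slc39a7, which fell, where 4.74% of all tested genes fell. With that scaling Slc39a9, Slc30a5 and Atp7b were at -0.30, -0.26 and -0.40 (limma adjusted p = 0.0677, 0.0899 and 0.0788). Slc39a7, which releases zinc from the endoplasmic reticulum, had 25.1, 23.2, 23.2 and 19.7 FPKM in SG livers, against 51.6, 39.7, 42.1 and 39.9 FPKM in FG livers. All SG libraries were far below all FG libraries, and the log2 difference of -0.90 (limma adjusted p = 0.00235) kept its call in all 18 alternatives. The Golgi zinc transporters Slc39a9 and Slc30a5 fell by 0.46 and 0.42 (limma adjusted p = 0.0108 and 0.0135), and Atp7b, which exports copper, by 0.55 (adjusted p = 0.0183), although Atp7b lost the call without FG 93 or SG 104 (adjusted p up to 0.0546). Mtf1, which encodes MTF-1, fell by 0.39 (limma adjusted p = 0.0250) to 1.95 ± 0.209 FPKM in SG livers, against 2.85 ± 0.272 FPKM in FG livers (SD, n = 4 each). It was not called after median-ratio scaling (limma adjusted p = 0.128), with quantile normalization or without the filter on low values. Nor was it called without FG 93, FG 94, FG 96, SG 103 or SG 104 (up to 0.0623).

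Slc30a10, which exports manganese, had a log2 decrease, a difference of -1.22 (limma adjusted p = 0.0286), with 1.08, 4.20, 1.03 and 1.40 FPKM in SG livers, against 5.32, 7.25, 3.28 and 5.92 FPKM in FG livers. SG 103 lay above FG 95, and Slc30a10 was no longer called under median-ratio scaling (adjusted p = 0.0545) or without FG 93, FG 94, FG 96, SG 104 or SG 105 (up to 0.0742). Slc30a1, a zinc exporter that MTF-1 induces as it does the metallothioneins, averaged 6.47 ± 0.574 FPKM in SG and 6.81 ± 0.438 FPKM in FG livers (SD, n = 4 each; log2 difference -0.06, limma adjusted p = 0.648). It turned to 0.09 under median-ratio scaling.

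None of the 9 glucocorticoid receptor genes and targets was called in the limma fit, where 19.4% of all tested genes were called. There were 2 at an unadjusted p under 0.05, both higher in SG livers, and voom called none. Fkbp5, a widely used glucocorticoid target, was at 12.3, 13.4, 33.1 and 28.8 FPKM in SG and 15.0, 11.5, 21.6 and 19.8 FPKM in FG livers (limma adjusted p = 0.601). Those 2 were Tat and Zbtb16, named after their values were seen: Tat had 523, 459, 931 and 1553 FPKM in SG livers, against 135, 399.8, 387 and 665 FPKM in FG livers (adjusted p = 0.137). Zbtb16 had 2.02, 11.2, 12.9 and 8.48 FPKM in SG livers, against 0.599, 0.453, 2.28 and 4.96 FPKM in FG livers (limma adjusted p = 0.0641). It was called with array weights, without FG 96 and without SG 101 (adjusted p = 0.0192, 0.0385 and 0.0156).

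**Figure D4:**
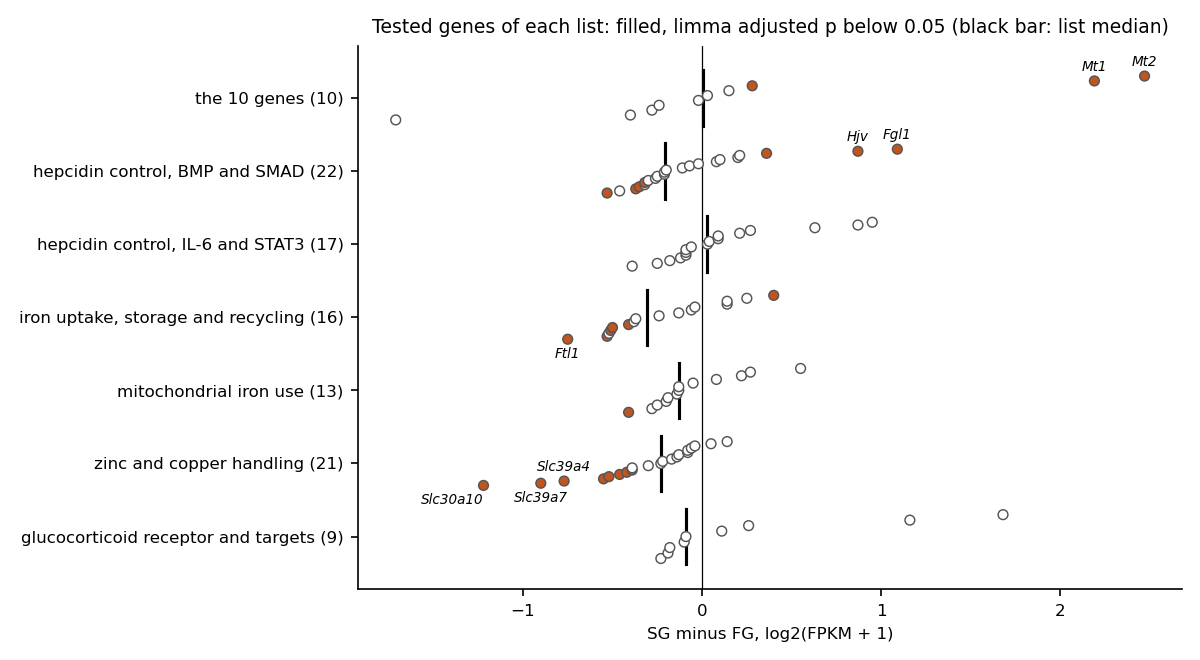
Difference between SG and FG livers in log2(FPKM + 1) (x axis) for the tested genes of each list (y axis, number tested in brackets); points are genes, filled where the limma adjusted p is under 0.05, and the black bar is the list's median. Slc30a10, Slc39a7 and the other called zinc and copper genes lie left of 0, Hjv and Fgl1 lie right of it, and Mt1 and Mt2 lie farthest right.

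Among other cell types, the summed cholangiocyte markers were 13.0 to 19.1 FPKM in SG and 21.9 to 27.7 FPKM in FG livers. Their exact permutation p was 0.0286, the smallest 4 against 4 allows, and was not adjusted over the marker lists. Spp1 made up most of that sum, at means of 12.4 FPKM in SG and 19.0 FPKM in FG livers, and its own values overlapped (exact permutation p = 0.0571). It was the 1 of 2 tested that was called lower, at -0.59, and was at -0.42 and not called after median-ratio scaling. Krt19, also tested, was not called (-0.73, limma adjusted p = 0.214) and reached 8.15 FPKM in FG 96. Krt7, Epcam and Sox9 did not pass the filter, and Sox9 averaged higher in SG livers. The erythroid gene Alas2, the heme synthesis enzyme whose mRNA also carries an iron-responsive element, rose by 0.68 (limma adjusted p = 0.0146) to 64.1 ± 11.4 FPKM in SG livers, against 39.3 ± 5.19 FPKM in FG livers (SD, n = 4 each), and kept its call in all 18 alternatives. The globin gene Hba-a1 averaged 62.0 ± 6.68 FPKM in SG and 69.2 ± 10.8 FPKM in FG livers (SD, n = 4 each; adjusted p = 0.435). All 4 globin genes measured differed by -0.24 to -0.11 with the deposited FPKM, and none was called in the limma fit, had an unadjusted p under 0.05 or was called by voom. The stellate cell markers summed to 65.2 to 93.0 FPKM in SG and 64.8 to 116 FPKM in FG livers (exact permutation p = 0.800). Lymphocyte and neutrophil markers summed to 3.97 to 4.85 FPKM in SG and 3.48 to 8.71 FPKM in FG livers (exact permutation p = 0.257). Ly6g was at 0 in every library but FG 93. Of 2 tested, S100a9 was called lower (-0.54, limma adjusted p = 0.0298), and was at -0.45 and not called after median-ratio scaling. It entered the fit through its FG values of 1.36 to 2.10 FPKM, against 0.438 to 1.03 FPKM in SG livers, so its call has little weight. S100a8, not tested, averaged 0.250 FPKM in SG and 1.18 FPKM in FG livers. Of the 6 hepatocyte markers, 2 were called higher, Cps1 and Apoa1 (0.93 and 0.44), where 3.73% of all tested genes were. Alb, Apoc3, Ttr and Serpina1c were not called, at 0.01, 0.10, -0.09 and 0.26. The share of these cells in the values of the 10 genes was not tested.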

How the data were processed

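Liver RNA of 8 libraries (4 SG, 4 FG) was sequenced as paired 150 bp reads on an Illumina instrument, per the labels' protocols. The deposited table holds FPKM per gene; the submitters' processing notes name fastp, HISAT2, HTSeq and DESeq2 with GRCm38 and mm10, without versions. No source used here gives the strand setting, so overlapping genes cannot be told apart. All 8 columns were matched to samples by library name. Recovered fragments served only for depth, for fragment counts, for the gene lengths behind the FPKM and for voom. Voom was chosen after seeing the data.

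Log2(FPKM + 1) of genes with at least 1 FPKM in at least 4 libraries was fitted with limma 3.58.1 (R 4.3.3, empirical Bayes with a mean-variance trend, no covariates), with Benjamini-Hochberg adjusted p-values taken across the 9867 genes. Single values and ratios were tested by exact two-sided permutation over the 70 assignments of libraries. The fit was checked on simulated data. The 10 genes, all lists and their tests were chosen with earlier results of these data known. All 10 genes were named, and of each list up to 4 called genes with the smallest adjusted p plus a set of genes fixed by name. Erfe, Heph, Cybrd1, Flvcr1, Slc39a5, Slc39a6, Slc39a10 and Atp7a did not pass the filter, Mt3 and Mt4 were not analysed here, and Smad8 was matched as Smad9. Alternatives were another pseudocount, filters, scaling, limma settings and leaving out each library. Promoter windows are RefSeq's (GRCm38.p6), and transcripts were aligned with Biopython 1.88. The summed level of the erythroid markers is not reported here.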

Additional observations from a re-analysis of the deposited data

Results flagged for a closer look

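The following single libraries stood apart from the other 3 of their group, by the gap to the nearest of them as a share of the group's range (Dixon's ratio, past its 95% critical value). Of 104 groups of 4 examined, 6 passed, and chance flags about 1 in 20 groups. SG 101 stood apart for the iron regulatory protein genes Ireb2 (0.873) and Aco1 (0.887). Among the FG libraries, the ratio was 0.925 for Tmprss6 in FG 94, 0.889 for Cebpa in FG 96, 0.834 for Socs3 in FG 93, and 0.890 for the Tfrc to Fth1 ratio in FG 95. Cebpa had 135, 137, 134 and 109 FPKM in FG 93 to FG 96, and its call held without FG 96. SG 105 did not pass this rule for Mt1, Mt2, Hamp or Hamp2 on the log2 scale.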

How the results depend on the processing

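Of the 10 genes, 3 were called with the deposited FPKM. The count was 4 with array weights and 2 with quantile normalization. It was 1 without a filter on low values, 1 after median-ratio scaling, 1 with robust empirical Bayes and 1 by voom on recovered fragments. When a library was left out, 0 to 3 were called. Of the genes in the pathway lists, 22 were called with the deposited FPKM. The count was 11 without the filter, 13 with a mean of at least 5 FPKM, 9 after median-ratio scaling, and 11 to 25 when a library was left out. With quantile normalization it was 15, and with array weights 31, the most of any setting. The lists held 22, 17, 16, 13, 21 and 9 tested genes, with Lcn2 in more than 1 of them. Of all tested genes 19.4% were called with the deposited FPKM and 9.97% after median-ratio scaling, so the counts of 22 and 9 are near the general share. The fewer calls with a mean of at least 5 FPKM follow in part from fewer genes tested; the other causes were not tested.

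Of 47 named genes followed through 17 or 18 alternatives, 38 kept their direction throughout. Of 24 called genes, Hjv, Fgl1, Slc39a7, Fbxl5 and Alas2 were called in every alternative run; Steap2 was too, but entered the fit only through its FG values. No value that changed sign was called. Besides Mt1 and Mt2, the genes that lost their calls without the filter on low values were Creb3l3, Ftl1, Lyrm4, Mtf1, Slc30a10, Bmp2, Acvr1, Smad1 and Ncoa4. With quantile normalization Lyrm4, Mtf1, Slc30a10, Bmp2, Acvr1, Smad1, Slc39a9, Slc30a5 and Atp7b lost theirs. Trf turned to -0.11 under quantile normalization and -0.04 with array weights, and ranged from -0.07 to 0.09 when a library was left out. Tfrc turned to 0.11 under median-ratio scaling, 0.11 under quantile normalization and 0.02 with array weights, and ranged from -0.20 to 0.20. Median-ratio scaling turned Tmprss6 to 0.07, Hfe to 0.09, Hmox1 to 0.12, Hba-a1 to 0.02 and Slc30a1 to 0.09, and quantile normalization turned Hfe to 0.09, Hmox1 to 0.12 and Slc30a1 to 0.09. With a library left out, Bmp6 ranged from -0.01 to 0.15, Hmox1 from -0.15 to 0.05 and Ireb2 from -0.09 to 0.33. The Tfrc to Fth1 ratio ranged from -0.05 (without SG 105) to 0.63; none of the 4 ratios passed in any alternative. Over the 10 genes, 1 had the smallest exact permutation p (0.0286) in each of the 3 settings run.

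No paired analysis was possible because SG and FG libraries share no replicate numbers. With 4 libraries a group, the exact test cannot go below 0.0286. Depth limits Hamp2 most, at 86 fragments in its lowest library, and Mt2 at 137.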
